A study of Mus musculus with 20 samples.

Results

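The 30 genes described here are targets of the sterol regulatory element-binding proteins (SREBPs), 20 of them genes of cholesterol (sterol) synthesis and 10 genes of fatty acid synthesis. They were listed by name, with earlier results of these data known. A listed gene was kept when its mean regularized log2 value (rlog, the log2 expression scale that DESeq2 computes from read counts) was at least 3 over the libraries of an experiment, and all 30 of the 30 listed genes were kept. They were set against the 20559 genes that reached this level in the Per1 experiment and the 20628 that did so in the Per2 experiment, of 55335 genes in the table.

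The RNA came from C2C12 myotubes, which are multinucleate muscle cells made by fusion in a line of mouse myoblasts once it stops dividing, and bulk poly(A) RNA sequencing was used to ask which transcripts change when a Period gene is overexpressed. In the Per1 experiment, 5 libraries of myotubes transduced with an adenovirus carrying Per1 and Gfp were compared with 5 libraries transduced with an adenovirus carrying Gfp alone. In the Per2 experiment, 5 libraries with a virus carrying Per2 and Gfp were compared with 5 other libraries with Gfp alone. Every group was transduced on day 4 of differentiation in medium with 2% horse serum and 1 µM insulin, received fresh medium after 24 h and was harvested at 48 h. A cytomegalovirus promoter drove each gene, in myotubes and in any unfused cell that took up virus alike. The Per1 and Per2 viruses were used at a 4-fold higher concentration than the Gfp virus, so the transgene and the amount of virus cannot be told apart in either experiment. The RNA of each comparison came from within an experimental replicate, so p-values measure only the spread between cultures.

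SREBPs are transcription factors that are made as precursors in the membrane of the endoplasmic reticulum, where Insig proteins hold them back while sterols are plentiful. When sterols run low the precursors move to the Golgi, are cut by proteases, and their released part enters the nucleus and binds sterol regulatory elements (SREs) and related E-box sequences, usually together with NF-Y at CCAAT boxes and Sp1 at GC boxes. SREBP-2, from Srebf2, acts mainly on cholesterol synthesis, whereas SREBP-1, from Srebf1, acts mainly on fatty acid synthesis and is raised by insulin, in muscle cells as in liver. Period proteins repress the clock factors CLOCK and BMAL1, which bind the E-box CACGTG.

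Promoter windows from RefSeq (mouse build GRCm38.p6, 250 bases before to 50 after each start site) were matched by symbol for 23 of the 30 genes, and not for Fdps, Fdft1, Sqle, Stard4, Scd1, Scd2 and Fads1. In all, 4 sequence motifs were searched on both strands, and a gene was counted when any of its windows held the letters. The CCAAT box (CCAAT, or ATTGG on the other strand) was in 20 of the 23 genes (87.0%), against 41.1% of all 27025 genes with a window and 42.4% of 12792 of them that were also tested in these libraries. The GC box GGGCGG was in 19 (82.6%), against 38.2% of all genes and 62.5% of tested genes. The E-box CACGTG was in 4 (17.4%, namely Insig1, Hsd17b7, Sc5d and Dhcr7), against 8.09% of all genes and 10.8% of tested genes. The classical SRE TCACNCCAC was in Hmgcs1 alone (4.35%), against 1.44% of all genes and 1.43% of tested genes. These shares are descriptions of short letter strings and say nothing of binding.

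The 250 bases before the start site are printed 5′ to 3′ on the gene's own strand for 4 genes. Hmgcs1 is shown as the gene with the SRE, Insig1 and Hsd17b7 as genes among the 4 with an E-box, and Ebp as the gene that fell most with Per1. With Per2, Insig1 and Hsd17b7 rose, and so did Hmgcs1, whose window holds no E-box by these letters. Whether the E-box had a part in any rise was not tested. Capitals mark the SRE (TCACCCCAC), the E-box (CACGTG) and the CCAAT box, which reads ATTGG here on the printed strand in every case, and no marked string overlaps another. The windows lie at chr13:119690101-119690350, plus strand (Hmgcs1), chr5:28071162-28071411, plus strand (Insig1), chr1:169969206-169969455, minus strand (Hsd17b7), and chrX:8193513-8193762, minus strand (Ebp).
Hmgcs1: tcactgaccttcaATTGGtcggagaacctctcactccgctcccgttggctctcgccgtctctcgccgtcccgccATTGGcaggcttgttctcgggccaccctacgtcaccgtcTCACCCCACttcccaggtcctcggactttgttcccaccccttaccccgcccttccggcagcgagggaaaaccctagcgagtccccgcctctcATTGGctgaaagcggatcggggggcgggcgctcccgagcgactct
Insig1: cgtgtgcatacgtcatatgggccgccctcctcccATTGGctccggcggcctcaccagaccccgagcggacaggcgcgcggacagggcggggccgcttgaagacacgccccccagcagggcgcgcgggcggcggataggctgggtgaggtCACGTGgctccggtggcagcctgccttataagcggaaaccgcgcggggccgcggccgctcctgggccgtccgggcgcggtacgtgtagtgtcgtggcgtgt
Hsd17b7: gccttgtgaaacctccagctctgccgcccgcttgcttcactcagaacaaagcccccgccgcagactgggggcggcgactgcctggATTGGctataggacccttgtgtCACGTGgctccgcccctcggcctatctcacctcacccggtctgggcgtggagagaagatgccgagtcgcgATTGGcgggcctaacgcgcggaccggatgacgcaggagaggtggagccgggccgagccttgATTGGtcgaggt
Ebp: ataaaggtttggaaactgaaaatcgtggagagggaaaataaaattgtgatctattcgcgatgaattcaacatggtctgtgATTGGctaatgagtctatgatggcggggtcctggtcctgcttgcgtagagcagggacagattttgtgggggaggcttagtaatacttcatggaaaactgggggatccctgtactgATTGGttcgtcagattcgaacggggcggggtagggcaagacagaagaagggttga
In Hmgcs1 the SRE starts 137 bases before the start site, between CCAAT boxes that start 176 and 45 bases before it, with a further box at 237. The bases just after this Hmgcs1 start site matched no run of a GENCODE transcript of the gene, while those of Insig1, Hsd17b7 and Ebp did. The Hmgcs1 distances therefore hold for the RefSeq start site alone. The E-box starts at 101 bases before the start site in Insig1 and at 143 in Hsd17b7, with a CCAAT box farther upstream at 216 in Insig1 and at 165 in Hsd17b7. The Ebp window holds CCAAT boxes at 170 and 55 bases before the start site and neither an SRE nor an E-box by these letters.

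The overexpressed genes were as labelled. Per1 measured 19.58 ± 0.11 rlog in the Per1 libraries and 15.27 ± 0.028 in their Gfp libraries (SD, n = 5 each), and Per2 measured 19.71 ± 0.051 in the Per2 libraries and 14.82 ± 0.11 in their Gfp libraries, where reads of the virus and of the cell's own gene are counted together. The first principal component held 67.2% of the variance in the Per1 experiment and 62.5% in the Per2 experiment, and it separated the Per from the Gfp libraries in both. Library medians spanned 10.29 to 10.33 and 10.19 to 10.24 rlog in the 2 experiments. Because 2712 genes were at 0 throughout the Per1 experiment alone, and 2391 throughout the Per2 experiment alone, the experiments were taken to have been transformed separately and no value was tested across them.

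Most sterol and fatty acid genes were higher with either Period gene, by small amounts. With Per1, 12 of the 20 sterol genes rose, 2 fell (Ebp and Dhcr7) and 6 did not pass the test, and 7 of the 10 fatty acid genes rose with none lower (limma, adjusted p of at most 0.05 over all genes tested). In the same test 20.1% of all genes rose and 20.6% fell, and median centring of the libraries turned this split into 3080 genes higher and 5912 lower, against 4131 and 4232 as deposited. Among the 7824 genes in the range of mean rlog of these 30 genes (11.80 to 18.87), 22.6% rose and 33.6% fell. The median difference between the Per1 and Gfp libraries was 0.08 log2 over the sterol genes (1.06-fold) and 0.10 over the fatty acid genes (1.07-fold), and 0.0011 over all genes tested.

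With Per2, 19 of the 20 sterol genes rose and Ebp did not pass the test, and 7 of the 10 fatty acid genes rose with none lower. In this experiment 18.6% of all genes rose and 17.5% fell, or 2765 higher and 5118 lower after median centring, against 3842 and 3600 as deposited. Among the 8190 genes in the members' range of mean rlog (11.53 to 18.34), 24.2% rose and 23.9% fell. The median difference was 0.21 log2 over the sterol genes (1.16-fold) and 0.15 over the fatty acid genes (1.11-fold), and 0.0006 over all genes tested. No member reached a log2 difference of 0.5 in either experiment, a size that 0.696% of all genes reached with Per1 and 0.621% with Per2. The rlog scale draws differences toward 0, so a fold given here can understate the fold of the counts.

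The Per1 libraries lay above every Gfp library for 13 of the 30 genes and below every one for 2, against 14.8% above and 15% below over all genes tested, and 17.5% and 25.9% over the genes in the members' range of mean rlog. All Per2 libraries lay above all of their Gfp libraries for 20 of the 30 genes and below for none, against 13.5% above and 12.8% below over all genes tested, and 18% and 18.7% in the members' range.

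**Figure D1:**
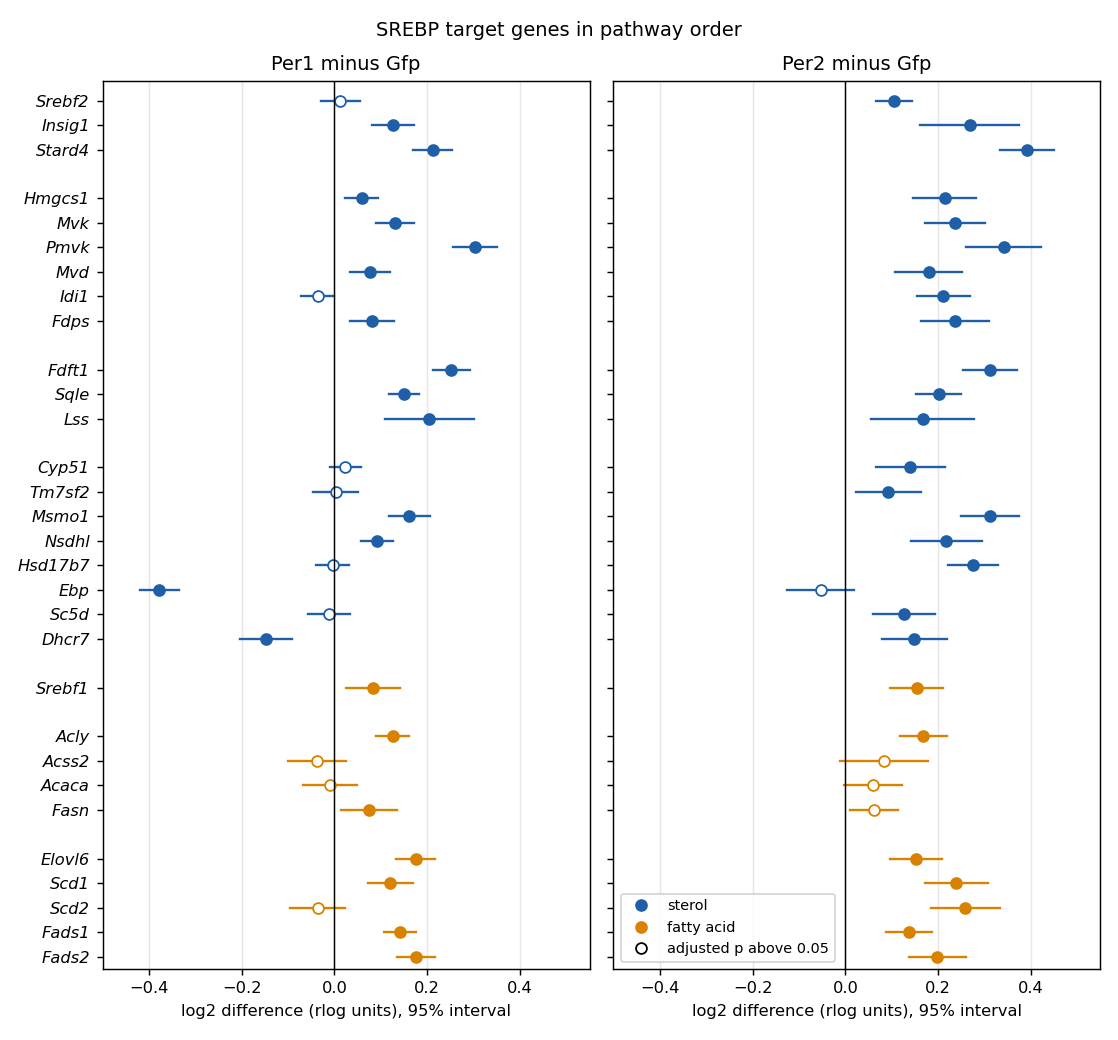
Log2 difference (rlog units, x axis) of each of the 30 genes between Per1 and Gfp libraries (left) and between Per2 and Gfp libraries (right), with 95% intervals, in pathway order from top to bottom; open points have an adjusted p above 0.05. With Per1, Ebp (-0.38) and Dhcr7 (-0.15) lie left of 0 while Pmvk reaches 0.30, and with Per2 every gene but Ebp lies right of 0, up to 0.39 for Stard4.

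Of the 3 regulators and carriers in the sterol group, 2 rose with Per1 and 3 with Per2. Srebf2, which encodes SREBP-2 itself, did not pass the test with Per1 and rose with Per2. In the Per1 experiment Srebf2 measured 16.12, 16.08, 16.16, 16.13 and 16.14 in the Per1 libraries, against 16.13, 16.15, 16.08, 16.10 and 16.09 in their Gfp libraries, which overlap, with a difference of 0.01 ± 0.019 (SE, adjusted p = 0.641) and a 95% interval of -0.03 to 0.05. Its Per2 experiment values were 15.69, 15.67, 15.70, 15.70 and 15.71 in the Per2 libraries, against 15.62, 15.60, 15.61, 15.57 and 15.54 in their Gfp libraries. All 5 Per2 libraries were above all 5 Gfp libraries, with a difference of means of 0.11 ± 0.018 (SE, adjusted p = 0.00043).

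Insig1, the anchor that retains SREBP precursors in the endoplasmic reticulum and is itself an SREBP target, rose with both. It measured 15.91, 15.91, 15.94, 15.90 and 15.89 in the Per1 libraries, against 15.86, 15.77, 15.79, 15.75 and 15.75 in their Gfp libraries, a difference of 0.13 ± 0.021 (SE, adjusted p = 0.000225). With Per2 it measured 15.69, 15.58, 15.63, 15.49 and 15.58 in the Per2 libraries, against 15.22, 15.28, 15.52, 15.34 and 15.25 in their Gfp libraries, a difference of 0.27 ± 0.05 (SE, adjusted p = 0.000732). The groups did not overlap with Per1. In the other experiment Per2 library 4, at 15.49, lay below Gfp library 3, at 15.52, and the other libraries were apart. Its promoter above holds the E-box.

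Stard4, a soluble carrier that moves cholesterol between membranes, had the largest rise of the 30 genes with Per2. It measured 13.50, 13.46, 13.57, 13.51 and 13.48 in the Per2 libraries, against 13.03, 13.11, 13.17, 13.15 and 13.10 in their Gfp libraries, a difference of 0.39 ± 0.027 (SE, adjusted p = 1.34e-07) or 1.31-fold. With Per1 it measured 13.63, 13.58, 13.64, 13.68 and 13.66 in the Per1 libraries, against 13.41, 13.43, 13.45, 13.45 and 13.39 in their Gfp libraries, a difference of 0.21 ± 0.02 (SE, adjusted p = 1.01e-06). No Gfp library reached the lowest Per library in either experiment.

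The 6 genes from Hmgcs1 to Fdps make farnesyl diphosphate from acetyl-CoA by way of mevalonate, and 5 of the 6 rose with Per1 and 6 of 6 with Per2. Hmgcs1 encodes the cytosolic synthase at the head of this branch. It measured 16.17, 16.19, 16.19, 16.16 and 16.15 in the Per1 libraries, against 16.12, 16.09, 16.16, 16.10 and 16.11 in their Gfp libraries, a difference of 0.06 ± 0.016 (SE, adjusted p = 0.00978) that was lost under median centring (0.04, adjusted p = 0.0708). In the Per2 experiment it measured 16.13, 16.12, 16.15, 16.04 and 16.12 in the Per2 libraries, against 15.80, 15.90, 15.99, 15.93 and 15.86 in their Gfp libraries, a difference of 0.21 ± 0.032 (SE, adjusted p = 0.000118). The groups overlapped with Per1, where Per1 library 15 (16.15) lay below Gfp library 14 (16.16), and did not overlap with Per2. This is the gene whose promoter holds the SRE.

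Pmvk, phosphomevalonate kinase, had the largest rise of the 30 genes with Per1. It measured 12.81, 12.89, 12.84, 12.80 and 12.86 in the Per1 libraries, against 12.58, 12.49, 12.56, 12.52 and 12.55 in their Gfp libraries, a difference of 0.30 ± 0.022 (SE, adjusted p = 9.11e-08) or 1.23-fold. Values in the Per2 experiment were 12.58, 12.53, 12.56, 12.44 and 12.49 in the Per2 libraries, against 12.05, 12.17, 12.28, 12.22 and 12.17 in their Gfp libraries, a difference of 0.34 ± 0.038 (SE, adjusted p = 9.46e-06) or 1.27-fold. The lowest Per library was above the highest Gfp library both times.

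Mvk, the mevalonate kinase before it, rose by 0.13 ± 0.019 (SE, adjusted p = 7.49e-05) with Per1 and by 0.24 ± 0.031 (SE, adjusted p = 3.73e-05) with Per2, without overlap in either. Mvd, the decarboxylase after it, rose by 0.08 ± 0.02 (SE, adjusted p = 0.00754) and by 0.18 ± 0.034 (SE, adjusted p = 0.000858), with 1 Gfp library (13.10 in the Per1 experiment, 12.82 in the Per2 experiment) reaching into the range of the Per libraries. Fdps, farnesyl diphosphate synthase, rose by 0.08 ± 0.022 (SE, adjusted p = 0.00837) and by 0.24 ± 0.034 (SE, adjusted p = 9.78e-05), and its groups overlapped with Per1 only.

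Idi1, the isomerase that supplies the allylic unit for chain building, did not pass the test with Per1 and rose with Per2. It measured 14.65, 14.67, 14.63, 14.65 and 14.66 in the Per1 libraries, against 14.68, 14.66, 14.73, 14.66 and 14.69 in their Gfp libraries, a difference of -0.04 ± 0.017 (SE, adjusted p = 0.0994) that passed the test after median centring (-0.06, adjusted p = 0.0112). With Per2 it measured 14.64, 14.67, 14.70, 14.60 and 14.68 in the Per2 libraries, against 14.36, 14.46, 14.50, 14.48 and 14.43 in their Gfp libraries, a difference of 0.21 ± 0.027 (SE, adjusted p = 3.28e-05). The groups overlapped with Per1, and every Per2 library was above every Gfp library with Per2. A processed copy, Idi1-ps1, shares 17.9% of the 31-base runs of Idi1 transcripts, and how the authors' counting split such reads is not given in the sources used here.

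**Figure D2:**
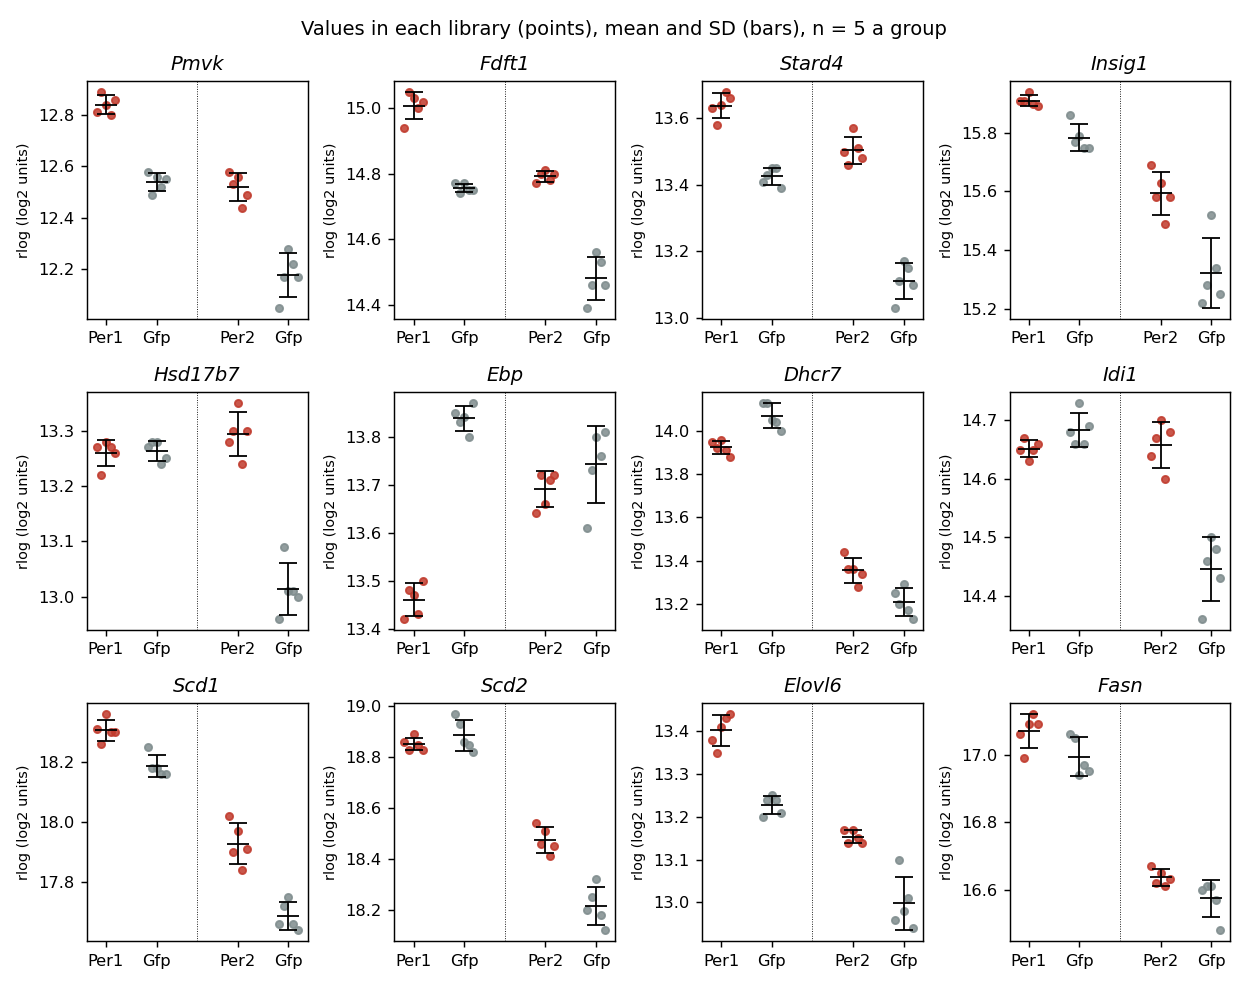
rlog of 12 genes (y axis, log2 units, a scale for each gene) in each library (points), with the group mean and SD (bars, n = 5), for the Per1 experiment left of the dotted line and the Per2 experiment right of it. Pmvk, Fdft1 and Stard4 are separated from Gfp in both experiments, Ebp and Dhcr7 lie below Gfp with Per1, and Hsd17b7, Idi1 and Scd2 are raised beside Gfp with Per2 and not with Per1; levels across the dotted line come from separate transformations.

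The 3 genes from squalene to lanosterol rose in both experiments. Fdft1, squalene synthase, commits farnesyl diphosphate to sterols. It measured 14.94, 15.05, 15.03, 15.00 and 15.02 in the Per1 libraries, against 14.77, 14.74, 14.77, 14.75 and 14.75 in their Gfp libraries, a difference of 0.25 ± 0.019 (SE, adjusted p = 1.11e-07) or 1.19-fold. Its Per2 experiment values were 14.77, 14.80, 14.81, 14.78 and 14.80 in the Per2 libraries, against 14.39, 14.46, 14.56, 14.53 and 14.46 in their Gfp libraries, a difference of 0.31 ± 0.027 (SE, adjusted p = 1.07e-06) or 1.24-fold. The spread within each group was small beside these differences, with the lowest Per1 library at 14.94 above the highest Gfp library at 14.77, and the lowest Per2 library at 14.77 above the highest Gfp library at 14.56. A pseudogene, Gm6781, shares 11.7% of the 31-base runs of Fdft1.

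Sqle, squalene epoxidase, an oxygen-requiring and rate-limiting step, rose by 0.15 ± 0.015 (SE, adjusted p = 2.47e-06) with Per1, with libraries at 15.16 to 15.22 against 15.03 to 15.06 in Gfp. With Per2 Sqle rose by 0.20 ± 0.022 (SE, adjusted p = 9.75e-06), with libraries at 14.96 to 15.05 against 14.76 to 14.85 in Gfp. Lss, lanosterol synthase, closes the sterol rings and had the largest standard error of the sterol genes in both experiments. It measured 13.81, 13.94, 14.06, 13.96 and 14.00 in the Per1 libraries, against 13.81, 13.81, 13.67, 13.64 and 13.82 in their Gfp libraries, a difference of 0.20 ± 0.045 (SE, adjusted p = 0.00196). Values in the Per2 experiment were 13.78, 13.79, 13.84, 13.62 and 13.68 in the Per2 libraries, against 13.50, 13.68, 13.71, 13.55 and 13.44 in their Gfp libraries, a difference of 0.17 ± 0.052 (SE, adjusted p = 0.0208). The groups overlapped each time, and with Per2 the call was lost without any 1 of Per2 libraries 2 and 3 and Gfp libraries 1 and 5 (0.13 to 0.15, adjusted p 0.0507 to 0.0567), and when low genes were kept in the fit (adjusted p = 0.0544).

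The 8 genes from lanosterol to cholesterol were mixed with Per1. In that experiment 2 rose (Msmo1 and Nsdhl), 2 fell (Ebp and Dhcr7) and 4 did not pass the test, with a median of -0.0005. These shares, 25% higher and 25% lower, were near the 20.1% and 20.6% of all genes tested. With Per2 7 of 8 rose (87.5%, against 18.6% of all genes tested), with a median of 0.14. Msmo1, the sterol methyl oxidase, rose by 0.16 ± 0.02 (SE, adjusted p = 1.92e-05) with Per1 and by 0.31 ± 0.029 (SE, adjusted p = 2.14e-06) with Per2. Nsdhl, its dehydrogenase partner on the X chromosome, rose by 0.09 ± 0.016 (SE, adjusted p = 0.000417) and by 0.22 ± 0.036 (SE, adjusted p = 0.000293). Neither of these genes overlapped between groups in either experiment.

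Ebp, the sterol isomerase of this stretch, fell with Per1 by more than any other of the 30 genes. It measured 13.42, 13.48, 13.47, 13.43 and 13.50 in the Per1 libraries, against 13.85, 13.83, 13.84, 13.80 and 13.87 in their Gfp libraries, a difference of -0.38 ± 0.019 (SE, adjusted p = 2.71e-09) or a ratio of 0.77. With Per2 it measured 13.64, 13.72, 13.66, 13.71 and 13.72 in the Per2 libraries, against 13.61, 13.73, 13.80, 13.76 and 13.81 in their Gfp libraries, a difference of -0.05 ± 0.034 (SE, adjusted p = 0.249). The highest Per1 library, at 13.50, was below the lowest Gfp library, at 13.80, whereas the Per2 libraries lay inside the Gfp range. Without Gfp library 1, the lowest of that group at 13.61, the Per2 difference was -0.09 and passed the test (adjusted p = 0.0119). No 31-base run of Ebp transcripts is shared with another gene, and its promoter has CCAAT boxes alone of the motifs marked above.

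Dhcr7, the reductase that completes cholesterol from dehydrocholesterol, fell with Per1 and rose with Per2. It measured 13.95, 13.92, 13.96, 13.91 and 13.88 in the Per1 libraries, against 14.13, 14.13, 14.05, 14.04 and 14.00 in their Gfp libraries, a difference of -0.15 ± 0.026 (SE, adjusted p = 0.000349). In the Per2 experiment it measured 13.44, 13.36, 13.36, 13.28 and 13.34 in the Per2 libraries, against 13.25, 13.20, 13.29, 13.17 and 13.13 in their Gfp libraries, a difference of 0.15 ± 0.032 (SE, adjusted p = 0.00248). The highest Per1 library, at 13.96, was below the lowest Gfp library, at 14.00. With Per2 the groups touched, since Per2 library 4 (13.28) was below Gfp library 3 (13.29).

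Hsd17b7, the reductase of the sterol ketone, was close to Gfp with Per1 and among the larger rises with Per2. It measured 13.27, 13.22, 13.28, 13.27 and 13.26 in the Per1 libraries, against 13.27, 13.28, 13.28, 13.24 and 13.25 in their Gfp libraries, a difference of -0.00 ± 0.017 (SE, adjusted p = 0.883) with a 95% interval of -0.04 to 0.03. Values in the Per2 experiment were 13.28, 13.30, 13.35, 13.24 and 13.30 in the Per2 libraries, against 12.96, 13.09, 13.01, 13.01 and 13.00 in their Gfp libraries, a difference of 0.28 ± 0.025 (SE, adjusted p = 1.57e-06) or 1.21-fold. Like Insig1, it has an E-box in its promoter, as do Sc5d and Dhcr7.

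A further 3 genes of this stretch did not pass the test with Per1 and rose with Per2. Cyp51, the lanosterol demethylase, differed by 0.02 ± 0.016 (SE, adjusted p = 0.256) with Per1 and rose by 0.14 ± 0.035 (SE, adjusted p = 0.00585) with Per2. Sc5d, the sterol desaturase, differed by -0.01 ± 0.021 (SE, adjusted p = 0.681) and rose by 0.13 ± 0.031 (SE, adjusted p = 0.00576). Tm7sf2, a sterol reductase with the lowest rlog of the 30 genes, differed by 0.00 ± 0.022 (SE, adjusted p = 0.937) and rose by 0.09 ± 0.033 (SE, adjusted p = 0.039). This last call was lost without any 1 of Per2 libraries 1, 2, 3 and 5 and Gfp libraries 1, 2, 4 and 5 (0.08 to 0.10, adjusted p 0.0501 to 0.102), and with no filter, median centring or quantile normalization (0.07 to 0.09, adjusted p 0.0827 to 0.091). Tm7sf2 shares 9.23% of its 31-base runs with the neighbouring gene Vps51. The groups of all of these genes overlapped in both experiments.

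In the fatty acid group, Srebf1, which encodes SREBP-1, rose with both. It measured 15.35, 15.30, 15.36, 15.36 and 15.33 in the Per1 libraries, against 15.34, 15.31, 15.22, 15.22 and 15.19 in their Gfp libraries, a difference of 0.08 ± 0.027 (SE, adjusted p = 0.0232). With Per2 it measured 14.93, 14.90, 14.89, 14.89 and 14.90 in the Per2 libraries, against 14.77, 14.76, 14.83, 14.71 and 14.66 in their Gfp libraries, a difference of 0.15 ± 0.026 (SE, adjusted p = 0.000403). With Per1, Gfp libraries 11 and 13 lay within the Per1 range while Gfp libraries 14, 15 and 16 were below it, and the call was lost without any 1 of Per1 libraries 13 and 14 and Gfp libraries 14, 15 and 16 (0.07 to 0.08, adjusted p 0.0506 to 0.0626), and with no filter (adjusted p = 0.0508) or median centring (0.06, adjusted p = 0.0967). With Per2 the lowest Per2 library was above the highest Gfp library.

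The 4 genes that supply carbon and build the chain had the smallest medians of the fatty acid steps, 0.03 with Per1 and 0.07 with Per2. Of the 4, 2 rose with Per1 (50%, against 22.6% in the members' range of mean rlog). With Per2 1 rose (25%), near the 24.2% in that range. Acly, ATP citrate lyase, which makes cytosolic acetyl-CoA from citrate, rose by 0.13 ± 0.017 (SE, adjusted p = 2.86e-05) with Per1 and by 0.17 ± 0.024 (SE, adjusted p = 8.37e-05) with Per2, without overlap. Acss2, which makes acetyl-CoA from acetate, differed by -0.04 ± 0.029 (SE, adjusted p = 0.329) and by 0.08 ± 0.044 (SE, adjusted p = 0.161). Without Per2 library 4 or Gfp library 3 the Acss2 difference with Per2 passed the test (0.12, adjusted p = 0.017, and 0.12, adjusted p = 0.0409). Acaca, acetyl-CoA carboxylase, the committed step, differed by -0.01 ± 0.027 (SE, adjusted p = 0.804) and by 0.06 ± 0.029 (SE, adjusted p = 0.128), and passed with Per2 without Gfp library 2 (0.08, adjusted p = 0.0255). A copy annotated as Gm5182 shares 29.3% of the 31-base runs of Acaca, the most of any member with another gene.

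Fasn, the fatty acid synthase, lay near the threshold in both experiments. It measured 17.06, 16.99, 17.09, 17.12 and 17.09 in the Per1 libraries, against 17.06, 17.05, 16.94, 16.97 and 16.95 in their Gfp libraries, a difference of 0.07 ± 0.028 (SE, adjusted p = 0.0473). Its Per2 experiment values were 16.67, 16.62, 16.65, 16.61 and 16.63 in the Per2 libraries, against 16.60, 16.61, 16.61, 16.57 and 16.48 in their Gfp libraries, a difference of 0.06 ± 0.024 (SE, adjusted p = 0.064). With Per1 the groups overlapped, and the call was lost without any 1 of Per1 libraries 11, 13, 14 and 15 and Gfp libraries 14, 15 and 16 (0.06 to 0.08, adjusted p 0.0621 to 0.122), and with no filter, no trend, median centring or quantile normalization (0.05 to 0.07, adjusted p 0.068 to 0.253). With Per2 the lowest Per2 library and the highest Gfp library both read 16.61 and did not cross, and the difference passed the test without Gfp library 2 (0.07, adjusted p = 0.0486) or Gfp library 3 (0.07, adjusted p = 0.0471), or when libraries were quantile normalized (0.07, adjusted p = 0.0366).

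Elongation and desaturation genes rose in 4 of 5 cases with Per1 and 5 of 5 with Per2. Elovl6, which lengthens palmitate, measured 13.38, 13.35, 13.41, 13.43 and 13.44 in the Per1 libraries, against 13.20, 13.24, 13.25, 13.24 and 13.21 in their Gfp libraries, a difference of 0.18 ± 0.019 (SE, adjusted p = 5.33e-06). With Per2 Elovl6 measured 13.17, 13.14, 13.17, 13.15 and 13.14 in the Per2 libraries, against 12.96, 13.10, 12.98, 13.01 and 12.94 in their Gfp libraries, a difference of 0.15 ± 0.026 (SE, adjusted p = 0.000454). Its Per libraries were above all Gfp libraries each time. Fads2 and Fads1, the front-end desaturases that make polyunsaturated fatty acids and are neighbours in the genome, rose without overlap in both experiments. The rise was 0.18 ± 0.019 (SE, adjusted p = 4.21e-06) with Per1 and 0.20 ± 0.029 (SE, adjusted p = 0.000102) with Per2 for Fads2. For Fads1 it was 0.14 ± 0.016 (SE, adjusted p = 7.55e-06) with Per1 and 0.14 ± 0.023 (SE, adjusted p = 0.000346) with Per2.

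The stearoyl-CoA desaturases Scd1 and Scd2 put the first double bond into saturated chains and had the highest rlog of the 30 genes. Scd1 measured 18.31, 18.26, 18.36, 18.30 and 18.30 in the Per1 libraries, against 18.25, 18.18, 18.18, 18.16 and 18.16 in their Gfp libraries, a difference of 0.12 ± 0.023 (SE, adjusted p = 0.000631). With Per2 Scd1 measured 18.02, 17.90, 17.97, 17.84 and 17.91 in the Per2 libraries, against 17.66, 17.72, 17.75, 17.66 and 17.64 in their Gfp libraries, a difference of 0.24 ± 0.032 (SE, adjusted p = 4.48e-05). Scd1 was thus above Gfp without overlap in both. Scd2 measured 18.86, 18.83, 18.89, 18.85 and 18.83 in the Per1 libraries, against 18.97, 18.93, 18.86, 18.85 and 18.82 in their Gfp libraries, a difference of -0.04 ± 0.028 (SE, adjusted p = 0.328) with a 95% interval of -0.09 to 0.02. With Per2 Scd2 measured 18.54, 18.46, 18.51, 18.41 and 18.45 in the Per2 libraries, against 18.20, 18.25, 18.32, 18.18 and 18.12 in their Gfp libraries, a difference of 0.26 ± 0.034 (SE, adjusted p = 4.81e-05). Scd2 overlapped with Gfp with Per1, where Gfp libraries 11 and 13 were the highest, and did not overlap with Per2. Scd1 shares 3.89% and Scd2 3.35% of their 31-base runs with Scd3.

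Levels per transcript length (rlog minus log2 of the kilobases of the canonical GENCODE transcript) gave the same genes at both ends in both experiments. Scd2 was highest, at 16.40 in Per1 and 16.44 in their Gfp libraries, and at 16.02 in Per2 and 15.77 in their Gfp libraries. Scd1 came next at 15.98 in Per1 and 15.86 in Gfp, and at 15.60 in Per2 and 15.36 in Gfp. Fdps followed, at 15.41 in Per1 and 15.33 in Gfp, and at 15.15 in Per2 and 14.92 in Gfp. Insig1 and Hmgcs1 came after it in that order, and their Gfp means in the Per2 experiment, 13.87 and 13.86, were closer than the SD of 0.12 between libraries of Insig1. At the other end Mvk was lowest, at 10.01 in Per1 and 9.88 in Gfp, and at 9.94 in Per2 and 9.70 in Gfp, below Elovl6, Stard4 and Hsd17b7. These levels are ordered within an experiment and were not tested across experiments.

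Within groups, the genes of each list varied together from library to library. After the group means were removed, the mean correlation between pairs of sterol genes over the 10 libraries was 0.24 in the Per1 experiment and 0.60 in the Per2 experiment. Pairs of fatty acid genes gave 0.52 and 0.64, and genes in the same range of mean rlog gave 0.017 and 0.011. These are descriptions over libraries that share their normalization, with no test. In the Per2 experiment Gfp library 3 was the highest Gfp library for 16 of the 20 sterol genes and Gfp library 1 the lowest for 15. Per2 library 4 was the lowest Per2 library for 16 of the 20 sterol genes and for 8 of the 10 fatty acid genes, and Per2 library 1 was the highest for 8 of the 10 fatty acid genes.

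The same spread is seen in the mean over the 20 sterol genes, which was 14.11, 14.10, 14.12, 14.03 and 14.08 in Per2 libraries 1 to 5, against 13.81, 13.89, 13.96, 13.90 and 13.85 in Gfp libraries 1 to 5. The lowest Per2 mean was thus above the highest Gfp mean. In the Per1 experiment the sterol mean was 14.21, 14.25, 14.26, 14.24 and 14.24 in Per1 libraries 11 to 15, against 14.20, 14.17, 14.19, 14.15 and 14.17 in Gfp libraries 11, 13, 14, 15 and 16, also without overlap. For the fatty acid genes Per1 library 12 (15.51) lay below Gfp library 11 (15.52), which was the highest Gfp library for 9 of the 10 genes. The remaining Per1 means were 15.54 to 15.58, and the remaining Gfp means 15.43 to 15.47.

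**Figure D3:**
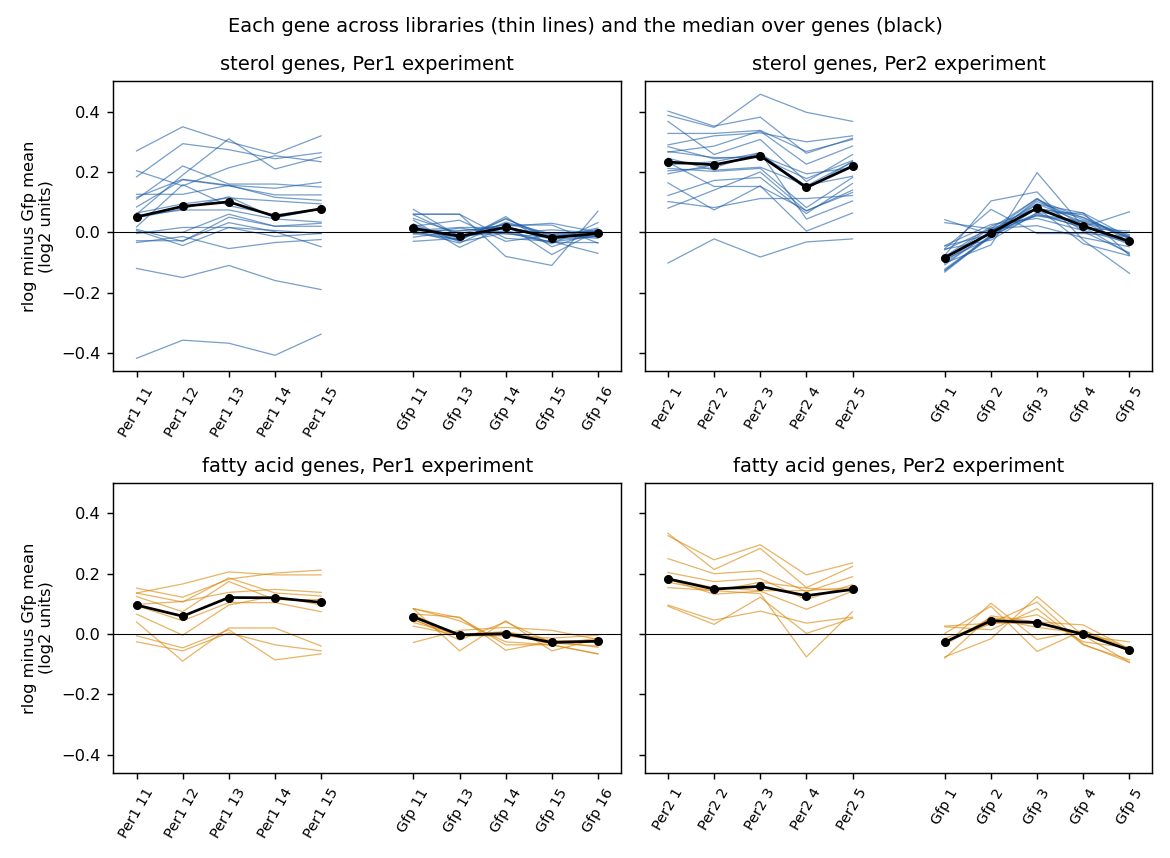
rlog minus the mean of the Gfp libraries of the same experiment (y axis, log2 units) in each library (x axis) for the 20 sterol genes (top) and the 10 fatty acid genes (bottom), with thin lines joining the values of a gene and the black line their median; libraries have no order. In the Per2 experiment the sterol genes dip together in Per2 library 4 and Gfp library 1 and rise together in Gfp library 3.

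Set side by side, 18 of the 30 genes (60%) rose in both experiments, against 11.7% of the 20153 genes tested in both. The 18 were 12 sterol genes and 6 fatty acid genes. A further 7 sterol genes (Srebf2, Idi1, Cyp51, Tm7sf2, Hsd17b7, Sc5d and Dhcr7) and Scd2 rose with Per2 and not with Per1 (26.7% of the 30 genes, against 7.31% of all genes tested in both). Fasn alone rose with Per1 and did not pass with Per2 (3.33%, against 8.68%), where its difference was 0.06 (adjusted p = 0.064). Dhcr7 was the only member to pass in opposite directions (3.33%, against 1.36% of all genes tested in both). The signs matched for 23 of the 30 genes (76.7%), against 71.5% of all genes tested in both, so the share of matching signs was near the background. Across the sterol genes the 2 sets of differences had a Pearson correlation of 0.81, and 0.24 across the 10 fatty acid genes, against 0.63 across all genes tested in both, given as descriptions because genes are not independent replicates. The Per2 difference was the larger for 19 of the 20 sterol genes (all but Lss) and 7 of the 10 fatty acid genes (86.7% of the 30, against 48.4% of all genes tested in both), and this was not tested because the experiments were transformed separately.

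**Figure D4:**
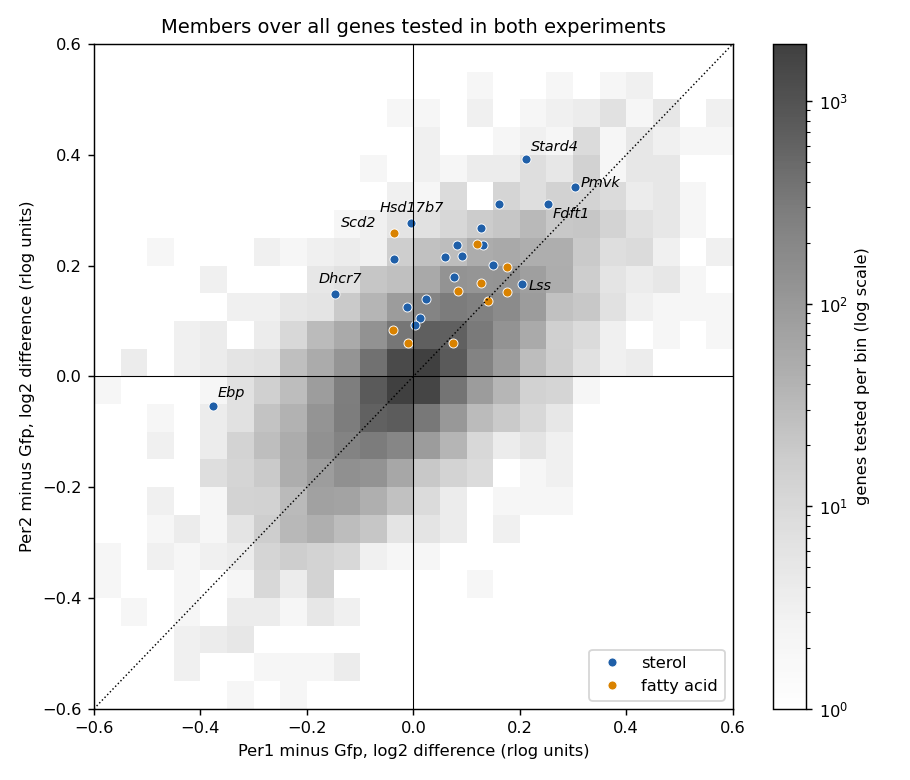
Log2 difference between Per1 and Gfp libraries (x axis) and between Per2 and Gfp libraries (y axis), both in rlog units, of the sterol genes (blue) and fatty acid genes (orange) over the number of all genes tested in each bin (grey, log scale); the dotted line marks equal differences. Of the sterol genes 19 of 20 lie above the dotted line, and Ebp alone lies below 0 in both experiments.

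Related genes outside the 30 were counted by list, beside 20.1% higher and 20.6% lower over all genes tested with Per1, and 18.6% and 17.5% with Per2. Among genes in the range of mean rlog of the 30 genes, 22.6% rose and 33.6% fell with Per1, and 24.2% rose and 23.9% fell with Per2. Of 9 other genes of sterol synthesis and uptake, 6 rose with Per1 (66.7%) and 4 with Per2 (44.4%), with none lower. Npc1, which exports cholesterol from lysosomes, rose by 0.16 ± 0.023 (SE, adjusted p = 6.07e-05) with Per1 and differed by 0.06 ± 0.024 (SE, adjusted p = 0.0585) with Per2. Acat2, the cytosolic thiolase that feeds Hmgcs1, rose by 0.11 ± 0.017 (SE, adjusted p = 0.000115) and by 0.20 ± 0.029 (SE, adjusted p = 0.00012). Erg28, a scaffold of the sterol enzymes, rose by 0.11 ± 0.024 (SE, adjusted p = 0.00236) and by 0.21 ± 0.023 (SE, adjusted p = 9.98e-06). Vldlr, a lipoprotein receptor, differed by 0.08 ± 0.051 (SE, adjusted p = 0.249) with Per1 and rose by 0.29 ± 0.05 (SE, adjusted p = 0.000411) with Per2.

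Of 11 genes tested that process or degrade SREBPs, 2 rose (18.2%) and 4 fell (36.4%) with Per1, and 3 rose and 3 fell (27.3% each) with Per2, with 2 to 4 genes behind each share, while Mlxipl was below the level filter. Fbxw7, which marks nuclear SREBPs for degradation, fell by 0.19 with Per1 (adjusted p = 1.33e-06) and by 0.09 with Per2 (adjusted p = 0.0022). Rnf145, a sterol-responsive ubiquitin ligase, rose by 0.16 ± 0.014 (SE, adjusted p = 7.61e-07) and by 0.12 ± 0.023 (SE, adjusted p = 0.00145). Spring1, which is needed to cut SREBP precursors, differed by 0.03 ± 0.02 (SE, adjusted p = 0.2) with Per1 and rose by 0.19 ± 0.021 (SE, adjusted p = 6.27e-06) with Per2. Vcp, also of this list, fell in both experiments without overlap. Its differences were -0.09 ± 0.015 (SE, adjusted p = 0.000214) with Per1 and -0.06 ± 0.015 (SE, adjusted p = 0.00654) with Per2.

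Among 16 tested genes of oxysterols, the liver X receptor and cholesterol efflux, 2 rose (12.5%) and 4 fell (25%) with Per1, and 5 rose (31.2%) and 3 fell (18.8%) with Per2, shares near those of all genes. Apoe, the apolipoprotein that carries cholesterol out of cells, differed by 0.03 ± 0.024 (SE, adjusted p = 0.309) with Per1 and fell by 0.41 with Per2 (adjusted p = 1.55e-05). Lcat, which esterifies cholesterol in lipoproteins, fell by 0.26 (adjusted p = 4.07e-06) and by 0.23 (adjusted p = 0.000189). Rxra, the partner of the liver X receptor, fell by 0.11 (adjusted p = 0.00151) and by 0.10 (adjusted p = 0.0122). Lpcat3, a phospholipid-remodelling target of that receptor, differed by 0.03 ± 0.03 (SE, adjusted p = 0.39) and rose by 0.15 ± 0.036 (SE, adjusted p = 0.00585) with Per2.

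The isoprenoid branches, which draw on farnesyl diphosphate, had 3 of 10 genes higher (30%) and 4 lower (40%) with Per1, and 4 higher (40%) and 1 lower (10%) with Per2. Coq2, of ubiquinone synthesis, rose by 0.12 ± 0.016 (SE, adjusted p = 3.28e-05) with Per1 and differed by 0.03 ± 0.018 (SE, adjusted p = 0.16) with Per2. Nus1, of dolichol synthesis, rose by 0.10 ± 0.015 (SE, adjusted p = 7.02e-05) and by 0.07 ± 0.019 (SE, adjusted p = 0.0113). Pdss1, which builds the ubiquinone side chain, fell by 0.08 (adjusted p = 0.017) and by 0.10 (adjusted p = 0.00713). Its partner Pdss2 fell by 0.09 with Per1 (adjusted p = 0.00219) and differed by 0.00 ± 0.025 (SE, adjusted p = 0.986) with Per2.

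Other genes of fatty acid and glycerolipid synthesis were 8 higher (28.6%) and 7 lower (25%) of 28 tested with Per1, shares near those of all genes. With Per2 14 were higher (51.9%) and 3 lower (11.1%) of 27 tested. The genes of this list named here had its largest differences in size, and none of them was among the 7 or the 3 that fell. Dgat2, which makes triglycerides, rose by 0.32 ± 0.022 (SE, adjusted p = 5.66e-08) and by 0.27 ± 0.035 (SE, adjusted p = 4.13e-05). Slc25a1, the mitochondrial carrier that exports the citrate used by Acly, rose by 0.25 ± 0.024 (SE, adjusted p = 1.51e-06) and by 0.25 ± 0.032 (SE, adjusted p = 2.84e-05). With Per1 the difference of Dgat2 was thus above that of Pmvk, the largest rise of the 30 genes. Acsl1, a long-chain acyl-CoA synthetase, differed by 0.06 ± 0.023 (SE, adjusted p = 0.0504) and rose by 0.22 ± 0.033 (SE, adjusted p = 0.000132) with Per2. Elovl7, another elongase, differed by 0.01 ± 0.041 (SE, adjusted p = 0.888) and rose by 0.24 ± 0.042 (SE, adjusted p = 0.000473) with Per2.

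**Figure D5:**
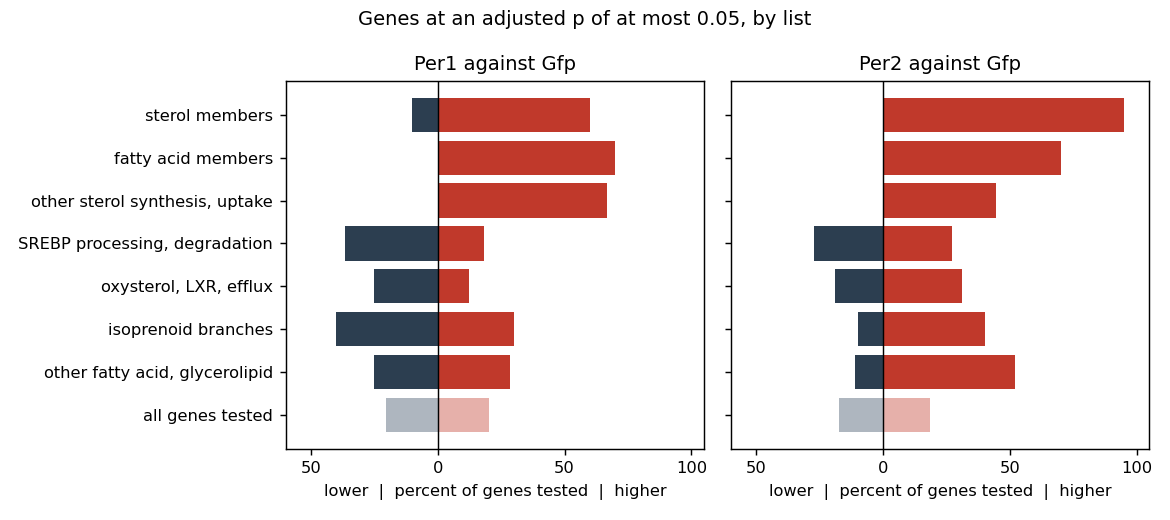
Percent of tested genes at an adjusted p of at most 0.05 that were higher (right of 0) or lower (left of 0) with Per1 (left panel) and Per2 (right panel), by list, with all genes tested in pale colours at the bottom. The sterol members reach 60% higher with Per1 and 95% with Per2, where all genes reach 20.1% and 18.6%, and the lists of SREBP processing, efflux and isoprenoid genes have bars on both sides.

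Markers of cell types and states were counted in the same way, beside 20.1% higher and 20.6% lower over all genes with Per1, and 18.6% and 17.5% with Per2. Of 10 markers of differentiated myotubes, 8 fell and none rose with Per1, and 5 fell and 1 (Myh3) rose with Per2. Their summed level (log2 of the sum of the rlog values taken as powers of 2) spanned 21.18 to 21.22 in the Per1 libraries and 21.31 to 21.36 in their Gfp libraries, and 20.85 to 20.91 in the Per2 libraries and 20.87 to 20.99 in their Gfp libraries. All 10 were well above the filter, with Myh3, an embryonic myosin, at 18.50 in the Per1 libraries and 18.68 in their Gfp libraries. Of 5 fibro-adipogenic markers 4 rose in each experiment (Ly6a, Cd34, Dpt and Pi16), with a summed level of 15.98 to 16.14 in the Per1 libraries and 15.66 to 15.75 in their Gfp libraries, and of 15.83 to 15.90 in the Per2 libraries and 15.50 to 15.67 in their Gfp libraries. This summed level was above Gfp without overlap in both experiments, and it was mostly Ly6a. Ly6a averaged 15.94 in the Per1 libraries and 15.56 in their Gfp libraries, and 15.68 in the Per2 libraries and 15.39 in their Gfp libraries. Pdgfra, the remaining marker, did not pass the test, with differences of -0.12 with Per1 (adjusted p = 0.0929) and 0.02 with Per2 (adjusted p = 0.673).

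Of 7 markers of proliferating myoblasts, 3 rose with Per1 (Ccnb1, Pax7 and Myf5) and 1 fell (Mki67, at -0.10, adjusted p = 0.0428). With Per2 3 rose (Top2a, Cdk1 and Myf5) and Mki67 did not pass the test (-0.01, adjusted p = 0.868). Myf5, a myogenic factor of myoblasts, rose by 0.53 ± 0.019 (SE, adjusted p = 9.44e-11) with Per1, more than any of the 30 genes, and by 0.14 ± 0.022 (SE, adjusted p = 0.000225) with Per2. The summed level of the 7 spanned 16.49 to 16.63 in the Per1 libraries and 16.40 to 16.52 in their Gfp libraries, and 16.68 to 16.84 in the Per2 libraries and 16.58 to 16.72 in their Gfp libraries. Adipocytes make lipid in quantity, and their markers Adipoq, Plin1, Cidec, Lep and Retn were all below the filter, with group means of 0.10 to 2.07 rlog. Fabp4 had group means of 3.19 to 3.22 rlog over the 4 groups. The transcription factors Pparg and Cebpa were well above the filter, with group means of 10.37 to 10.57 and of 10.56 to 11.17 rlog, and made up most of the summed level below. Of the 3 adipocyte markers tested none rose and 1 fell in each experiment (Cebpa with Per1 and Pparg with Per2). The summed level of all 8 listed, those below the filter included, spanned 11.84 to 11.88 in the Per1 libraries and 11.86 to 11.94 in their Gfp libraries, and 11.51 to 11.58 in the Per2 libraries and 11.51 to 11.61 in their Gfp libraries. Of the macrophage and leukocyte markers, 1 of 3 tested rose and 1 fell with Per1, and 2 of 4 fell and none rose with Per2. The summed level of all 5 listed spanned 9.36 to 9.42 in the Per1 libraries and 9.34 to 9.41 in their Gfp libraries, and 9.20 to 9.25 in the Per2 libraries and 9.40 to 9.42 in their Gfp libraries. Adgre1 was listed at 0 in all libraries of the Per2 experiment. In bulk RNA, fewer cells of a type and less RNA per cell cannot be told apart, and the part of the myotube, fibro-adipogenic and myoblast markers in the results above was not tested.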

How the data were processed

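Bulk poly(A) RNA was sequenced from 20 libraries of C2C12 myotubes in 2 experiments, 5 Per1 or Per2 libraries against 5 Gfp libraries each, and Gfp libraries were assigned to an experiment by the number series in their labels. Reads had been mapped by the authors with STAR, and the deposited values are regularized log2 (rlog) values of gene counts from DESeq2. The build is GRCm39 in the study's methods and mm10 in the labels, and the study's methods and the labels also differ on read length and sequencer. With rlog values alone, sequencing depth is unknown and intervals of counting error could not be given.

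The deposited log2 values were fitted with limma 3.58.1 (R 4.3.3, empirical Bayes with trend, two-sided) in each experiment, over genes whose rlog averaged 3 or more across its 10 libraries, and p-values were adjusted by the Benjamini-Hochberg method over all genes tested. A gene passed at an adjusted p of at most 0.05. On simulated data with 100 genes changed by 0.30 log2 and 100 by 0.15, the fit recovered 99 and 76 in the Per1 design, and 98 and 66 in the Per2 design. Gene IDs were named by GENCODE M39 (51654 of 55335 matched).

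The 30 genes and the related lists were chosen with earlier results of these data known. All 30 are named, with up to 4 genes of each related list that passed in either experiment and had the largest differences. Alternatives were the filter (none, or a mean of at least 5), median centring, quantile normalization, no trend, a replicate block, a log2 difference of at least 0.5, and leaving out each library. Another 5 genes of the related lists are not reported here.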

Additional observations from a re-analysis of the deposited data

Results flagged for a closer look

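Within groups of 5 libraries, 1 library stood apart from the other 4 for 4 of the 120 combinations of gene and group, where chance gives about 1 in 20, or 6. Hmgcs1 was at 16.04 rlog in Per2 library 4, against 16.12 to 16.15 in the other Per2 libraries. Mvd was at 12.79 in the same library, against 12.89 to 12.92. Srebf1 was at 14.93 in Per2 library 1, against 14.89 to 14.90 in the other Per2 libraries. Fasn was at 16.48 in Gfp library 5 of the Per2 experiment, against 16.57 to 16.61 in the other Gfp libraries.

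For 2 genes every Per1 library lay below the mean of its Gfp libraries and every Per2 library lay above the mean of its own. Idi1 differed from Gfp by -0.04 with Per1 and by 0.21 with Per2, and Dhcr7 by -0.15 with Per1 and by 0.15 with Per2. The difference between experiments was not tested.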

How the results depend on the processing

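Requiring a log2 difference of at least 0.5 left 0 sterol genes higher and 0 lower with Per1, and 0 higher with Per2, and 0 fatty acid genes higher with either. Of all genes tested, 0.696% met this with Per1 and 0.621% with Per2. The median of the sterol genes with Per1 was 0.0569 under median centring and 0.1005 under quantile normalization. Median centring, which left the median difference over all genes at -0.021 in each experiment, gave 11 sterol genes higher and 3 lower with Per1 and 18 higher with Per2, and 5 and 7 fatty acid genes higher. Leaving out each library gave 12 to 12 sterol genes higher and 2 to 2 lower with Per1 and 17 to 19 higher with Per2, with 0 to 1 lower (Ebp, without Gfp library 1), and 5 to 7 and 7 to 9 fatty acid genes higher. The medians then spanned 0.070 to 0.090 and 0.090 to 0.12 (sterol and fatty acid genes with Per1), and 0.190 to 0.231 and 0.135 to 0.168 (with Per2).

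The signs that changed were all of genes that did not pass with Per1. Srebf2 was at -0.00922 and Tm7sf2 at -0.0192 under median centring, and under quantile normalization Hsd17b7 was at 0.0125, Sc5d at 0.00495 and Acaca at 0.00836. Leaving out each library, Tm7sf2 spanned -0.0149 to 0.0155, Hsd17b7 -0.0103 to 0.00623, Sc5d -0.0235 to 0.000510 and Acaca -0.0215 to 0.0107. The cause was not tested.

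Same-numbered libraries of the Per and Gfp groups did not pair. The correlations of their deviations were 0.136, 0.0469, -0.0146 and 0.0415 in the Per1 experiment and 0.180, -0.0867, -0.105, 0.0224 and 0.0408 in the Per2 experiment. Only the libraries numbered 1 in the Per2 experiment each correlated best with the other. With the replicate block, which leaves out Per1 library 12 and Gfp library 16, 12 sterol genes were higher and 2 lower with Per1 and 7 fatty acid genes higher. With Per2 the block gave 19 sterol genes and 8 fatty acid genes higher (Fasn, adjusted p = 0.0484). Tm7sf2 was at -0.000625 and Hsd17b7 at 0.00269 with Per1 under the block, and equally for the same libraries without it, a setting chosen after seeing the data.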
